A study of Mus musculus with 6 samples.

Results

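The 7 genes described here, Pitx1, Lhx3, Hesx1, Six6, Pomc, Bsx and Rax, mark the pituitary, the hypothalamus, the eye field and the placodes, which are the thickenings of head ectoderm that give rise to sense organs and the anterior pituitary. They were found by symbol in the deposited files, and all 7 were present among the 37991 genes listed for each library. The list was chosen by read counts and levels of this same FGF2 and vehicle comparison, so its values are a description and no p-value is given for them. Intervals on their ratios cover the counting of reads in these libraries and do not compare the conditions. RNA was measured in 6 mouse embryos of the CD1 strain, all labelled E13.5 (days of gestation), the age at injection, with 1 library per embryo. An intraventricular dose of 100 ng FGF2, a ligand of the FGF receptors, was given to 3 embryos (numbered 6, 7 and 8), and vehicle alone (PBS with 0.1% BSA) to 3 others (7, 8 and 9). In both groups the RNA came from formalin-fixed frozen coronal sections of the dorsal telencephalon, the wall of the embryonic forebrain that forms the cortex, from levels in front of the hippocampus. Neither the interval from injection to collection nor the litters are stated. P-values therefore measure only the spread between these samples, which may be technical.

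The pituitary has a double origin. Its anterior lobe buds from the oral ectoderm as Rathke's pouch, while its posterior lobe grows down from the floor of the hypothalamus, and the hypothalamic floor instructs the pouch with FGF and BMP signals. Rax is a homeobox factor of the eye field and of hypothalamic progenitors, Six6 acts in the eye field, hypothalamus and pouch, and Bsx is a homeobox factor of the hypothalamus and pineal gland. Pitx1 is a homeobox factor of the oral ectoderm, the pouch and the first branchial arch, Hesx1 is a repressor of the early forebrain and pouch, and Lhx3 is a LIM homeobox factor required for the pouch to grow. Pomc encodes the precursor of ACTH and melanocyte-stimulating hormone, made by pituitary corticotrophs and by neurons of the arcuate nucleus. None of these genes is a marker of the cortical wall, so their levels serve as a check for tissue beyond it.

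Total counts were 64631136 to 81532334 in the FGF2 libraries and 61489462 to 68101511 in the vehicle libraries. The counts of vehicle 9 held even numbers only, whereas in the other 5 libraries 51% to 51.9% of the values above 0 were even. The labelled tissue was present in both groups: 10 of 10 dorsal telencephalon markers were detected, with levels summing to 1982 to 2268 CPM in the FGF2 embryos and 2995 to 3203 CPM in the vehicle embryos (CPM is the count scaled to the size of the library). Connective tissue was present in both groups too, with 13 cranial mesenchyme symbols at 2322 to 2674 CPM in the FGF2 embryos and 3667 to 4225 CPM in the vehicle embryos. In such bulk samples, more cells of a type and more RNA per cell cannot be told apart.

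Promoter sequences of Bsx, Six6 and Pomc are shown because Bsx and Six6 were both highest in FGF2 6 and 7, while Pomc had many reads in all 6 libraries. The sequences are from RefSeq (GRCm38.p6), run from 250 bases before to 50 bases after the start of the gene, 5′ to 3′ on the coding strand, and capitals mark the homeodomain core TAAT and the TATA box TATAAA on either strand.
Bsx, chr9:40873877-40874176, plus strand: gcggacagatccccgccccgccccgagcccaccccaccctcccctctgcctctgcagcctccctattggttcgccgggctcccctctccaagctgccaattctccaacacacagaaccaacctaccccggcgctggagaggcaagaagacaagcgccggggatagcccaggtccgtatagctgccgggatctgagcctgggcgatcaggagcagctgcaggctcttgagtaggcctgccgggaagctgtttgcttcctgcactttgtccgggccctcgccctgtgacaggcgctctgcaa
Six6, chr12:72939632-72939931, plus strand: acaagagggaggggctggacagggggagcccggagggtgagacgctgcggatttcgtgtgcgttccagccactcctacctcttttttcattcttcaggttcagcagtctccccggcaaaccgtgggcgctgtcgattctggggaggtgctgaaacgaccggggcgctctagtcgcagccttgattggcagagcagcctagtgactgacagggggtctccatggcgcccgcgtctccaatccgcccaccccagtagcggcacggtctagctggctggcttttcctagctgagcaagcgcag
Pomc, chr12:3954695-3954994, plus strand: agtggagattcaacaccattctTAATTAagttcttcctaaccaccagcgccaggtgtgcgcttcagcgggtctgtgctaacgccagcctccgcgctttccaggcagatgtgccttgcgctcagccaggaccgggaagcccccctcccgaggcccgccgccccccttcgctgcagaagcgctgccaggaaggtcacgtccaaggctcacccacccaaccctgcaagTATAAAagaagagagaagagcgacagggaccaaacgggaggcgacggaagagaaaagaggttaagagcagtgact
The windows of Bsx and Six6 held 0 matches to TAAT and 0 to TATAAA. The window of Pomc held 2 overlapping matches to TAAT and 1 match to TATAAA. Among all 32851 promoter windows of the same length, 58.03% held a TAAT and 13.62% held a TATAAA, and the bicoid-class core TAATCC, searched as the sequence that Pitx factors prefer, was in 7.06% of them and in none of these 3. These are matches of letters in a short window and show no binding.

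The genes of the eye field and hypothalamus were nearly absent from the vehicle embryos and were read at low levels in the FGF2 embryos, most in FGF2 6 and 7. Rax (chromosome 18, 66094293 to 66098743, NCBIM37) had 112, 74 and 7 reads in FGF2 6, 7 and 8, against 0 reads in each of the 3 vehicle embryos. That is 1.33, 1.04 and 0.109 CPM in the FGF2 embryos, against a limit of 0.0157 CPM that 3 reads over the vehicle group would give. Reads over the Rax span were thus found in every FGF2 embryo. Over the FGF2 group they were at least 56.0-fold above that floor, with FGF2 8 far below the other two. The 7 reads of FGF2 8 covered 6.56% of the span, and 34.9% of the span is shared with another gene, Raxos1. Presence of Rax itself in FGF2 8 is therefore not settled.

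Bsx (chromosome 9, 40682210 to 40686055) was likewise lowest in FGF2 8, at a smaller spread, and highest in FGF2 7. It had 102, 98 and 30 reads in FGF2 6, 7 and 8, or 1.21, 1.38 and 0.467 CPM, against 0, 0 and 2 reads in vehicle 7, 8 and 9, or 0, 0 and 0.0318 CPM. The groups did not overlap, and the pair of vehicle reads lay in the library whose counts are all even, so it need not be 2 separate reads. Summed over embryos, the ratio of FGF2 to vehicle was 100.1, with a 95% exact binomial interval of 27.4 to 832. Such intervals cover counting error only, and mates counted separately make them too narrow.

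Six6 (chromosome 12, 74040711 to 74047081) had fewer reads. It had 42, 39 and 8 reads in FGF2 6, 7 and 8, or 0.499, 0.550 and 0.124 CPM, against 2, 0 and 0 reads in vehicle 7, 8 and 9, or 0.0327, 0 and 0 CPM. Again the groups did not overlap and FGF2 8 was the lowest of its group. The summed ratio was 38.7 with a counting interval of 10.4 to 325. The span of Six6 shares 1110 bases (17.4%) with that of 4930447C04Rik, read 365, 320 and 199 times in FGF2 6, 7 and 8 and 96, 151 and 148 times in vehicle 7, 8 and 9, and the span of Rax shares 1552 bases (34.9%) with Raxos1, which had 39, 29 and 4 reads against 0, 0 and 0. The sources used here do not say whether counting used strand, so reads in the shared bases cannot be assigned to either gene.

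Of the genes of Rathke's pouch and oral ectoderm, Pitx1 had the most reads, and its order over the FGF2 embryos was another one. Pitx1 (chromosome 13, 55926415 to 55937553) had 26, 315 and 209 reads in FGF2 6, 7 and 8, or 0.309, 4.44 and 3.25 CPM, against 0, 2 and 0 reads in vehicle 7, 8 and 9, or 0, 0.0299 and 0 CPM. FGF2 6, which was high in Rax, Bsx and Six6, was the lowest FGF2 embryo for Pitx1, at 0.0951 of the level in FGF2 8 (95% exact binomial interval 0.0607 to 0.143, counting error only). The covered fraction of the gene span, which appears to include gaps of spliced alignments, was 98.5% in FGF2 7, 58.7% in FGF2 8 and 9.44% in FGF2 6. It was 1.36% in vehicle 8, where the pair of reads gave an RPKM (reads scaled to gene-model length and read number) of 0.

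Hesx1 and Lhx3, the other pouch genes, were close to the limit of detection in both groups. Hesx1 (chromosome 14, 27813548 to 27815515) had 7, 2 and 2 reads in FGF2 6, 7 and 8, against 0, 0 and 0 in the vehicle embryos. The 11 reads of the FGF2 group are at least 3.19-fold above the floor of 3 reads, and counts of 2 may be the mates of 1 pair. Lhx3 (chromosome 2, 26055732 to 26063809) had 4, 6 and 6 reads in the FGF2 embryos, against 2, 4 and 0 reads in vehicle 7, 8 and 9, so FGF2 6 and vehicle 8 shared the same number of reads. Its summed ratio of 2.32 had a counting interval of 0.863 to 7.24.

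**Figure D1:**
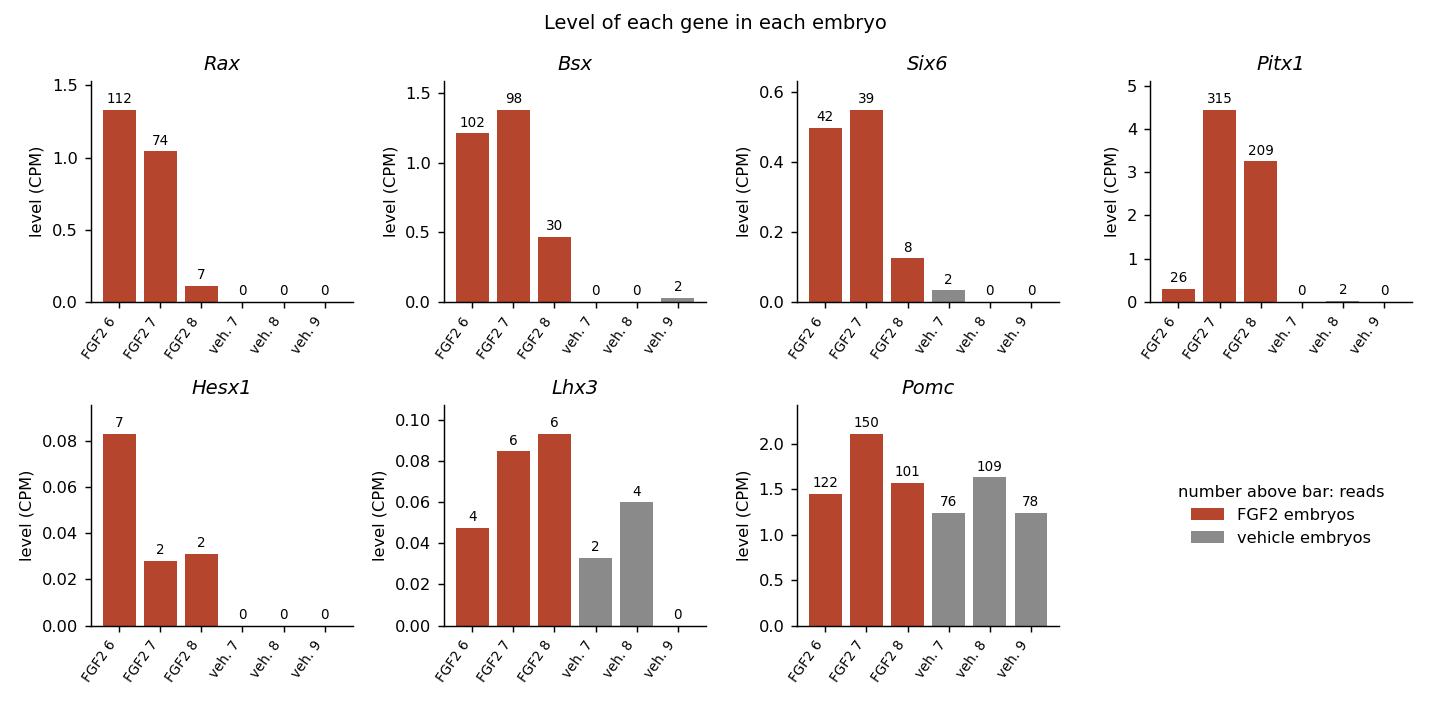
Level (CPM, vertical axes from 0, scaled separately for each gene) of the 7 genes in each of the 3 FGF2 (red) and 3 vehicle (grey) embryos, with the number of reads above each bar. Rax, Bsx and Six6 have their lowest FGF2 level in FGF2 8, Pitx1 has its lowest in FGF2 6 (26 reads), and Pomc has 76 to 150 reads in every embryo.

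Pomc was the only hormone precursor among the 7 genes and the only one with many reads in both groups. Pomc (chromosome 12, 3954951 to 3960618) had 122, 150 and 101 reads in FGF2 6, 7 and 8, or 1.45, 2.115 and 1.57 CPM, against 76, 109 and 78 reads in vehicle 7, 8 and 9, or 1.24, 1.63 and 1.24 CPM. The groups overlapped, since vehicle 8 lay above FGF2 6 and FGF2 8, and the means of 1.71 ± 0.354 CPM in the FGF2 embryos and 1.37 ± 0.225 CPM in the vehicle embryos (SD, n = 3 each) differed by about as much as the embryos of a group did. The summed ratio was 1.23 with a counting interval of 1.05 to 1.45, which leaves out the spread between embryos. The reads of Pomc lay in a small part of its span, with 9.51% to 16.1% of the bases covered in the FGF2 embryos and 8.94% to 9.77% in the vehicle embryos.

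Only Pitx1, Pomc and Bsx of the 7 genes passed the filter on low counts and entered the fit across all genes, Pitx1 and Bsx through their FGF2 libraries. Of these 3, 2 (Pitx1 and Bsx) were called higher and 0 lower by edgeR's quasi-likelihood test, where 3.63% of the 21983 genes tested were called, 2.68% higher and 0.951% lower. Since this contrast chose the list, nothing is read from that count, and the calls were not followed through the alternatives. Every FGF2 embryo lay above every vehicle embryo in 5 of the 7 genes, all but Lhx3 and Pomc, and this held for 12.6% of the 29000 genes with a read in any library.

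Per length, which allows genes to be compared with each other, Pomc ranked first in every embryo, at 1.63, 2.22 and 1.71 RPKM in FGF2 6, 7 and 8 and at 1.35, 1.69 and 1.29 RPKM in vehicle 7, 8 and 9. The order below Pomc differed between the FGF2 embryos. In FGF2 6 it ran Bsx (1.10 RPKM), Rax (0.748), Pitx1 (0.113), Six6 (0.0992), Hesx1 (0.0479) and Lhx3 (0.0135). In FGF2 7 Pitx1 (1.73 RPKM) stood above Bsx (1.22) and Rax (0.636), and in FGF2 8 Pitx1 (1.13 RPKM) stood above Bsx (0.573) and Rax (0.0622). Over the FGF2 group, Pitx1 averaged 0.991 ± 0.818 RPKM and Bsx 0.965 ± 0.344 RPKM (SD, n = 3 each), so these neighbours in the order did not differ beyond their spread. Rax at 0.482 ± 0.368 RPKM also overlapped them. In the vehicle embryos Rax, Pitx1 and Hesx1 were listed at 0 RPKM throughout, and Bsx (0.0384 RPKM in vehicle 9) and Six6 (0.00358 RPKM in vehicle 7) were each above 0 in 1 embryo.

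**Figure D2:**
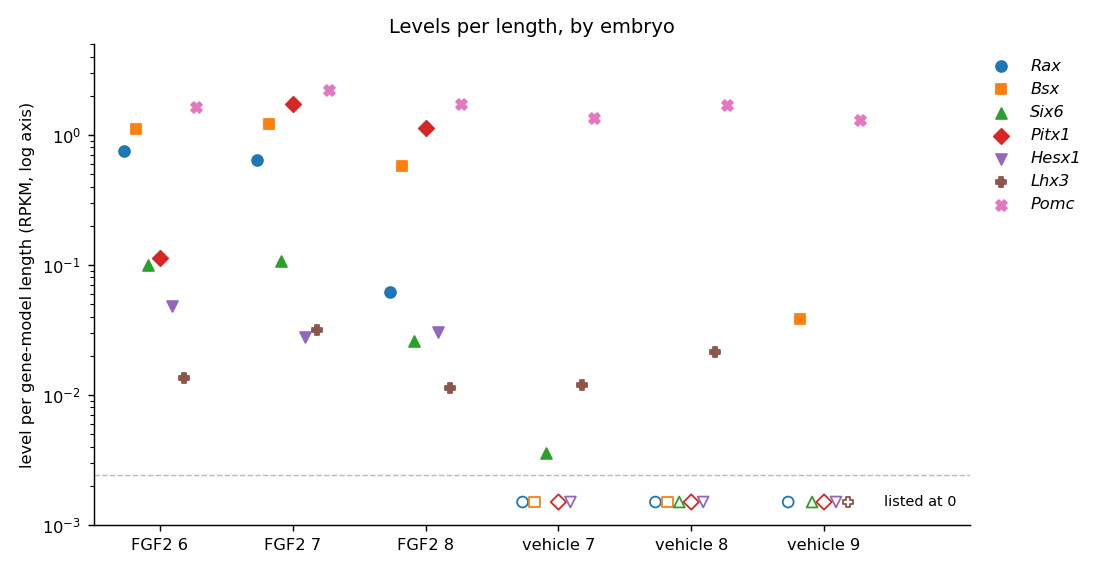
Level per gene-model length (RPKM, log axis) of the 7 genes in each embryo, with 1 symbol per gene and open symbols below the dashed line for values listed at 0. Pomc is the highest of the 7 in all 6 embryos, and Pitx1 moves from 0.113 RPKM in FGF2 6 to a place just under Pomc in FGF2 7 and FGF2 8.

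All 7 genes had reads in each of the 3 FGF2 embryos, and the embryos differed in the levels. FGF2 8 held 4.38% of the summed FGF2 level of Rax, 15.2% of that of Bsx and 10.6% of that of Six6, and FGF2 6 held 3.86% of that of Pitx1. The ratio of FGF2 6 to FGF2 8 was 12.2 for Rax (counting interval 5.74 to 31.1), 2.60 for Bsx (1.72 to 4.05) and 4.01 for Six6 (1.86 to 9.90), while FGF2 7 and FGF2 6 had ratios of 0.784 (0.576 to 1.06), 1.14 (0.855 to 1.52) and 1.10 (0.694 to 1.74) for these 3 genes, intervals that all include 1. FGF2 8 was the lowest FGF2 embryo in 3 of the 7 genes and FGF2 6 in 3. Over all genes tested, FGF2 8 was the lowest in 40.8% and FGF2 6 in 29.4%, so either order is common.

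Genes set beside these, chosen after their values were seen, differed in their spread. Hmx2 and Hmx3, homeobox factors of the hypothalamus, held 0% and 2.03% of their summed FGF2 level in FGF2 8, although both lie within a longer span listed for Fgfr2. Nkx2-1, a factor of the hypothalamus and the ventral telencephalon, held 18.1% there, Fezf1 22.0% and Shh 23.6%, all larger shares than that of Rax. Six3 and Isl1 were spread more evenly, with 34.3% and 37.2% in FGF2 8. Of the 6 muscle and cartilage genes with at least 10 reads in the FGF2 group, FGF2 6 was the lowest in 3 and FGF2 7 in 3. The cartilage genes Matn1 and Acan were lowest in FGF2 6, as Pitx1 was, whereas Actc1, a muscle actin, was highest there, at 0.333, 0.0564 and 0.249 CPM in FGF2 6, 7 and 8 against 0.0981, 0 and 0.0952 CPM in vehicle 7, 8 and 9. Matn1 was at 0.0238, 1.37 and 8.21 CPM in FGF2 6, 7 and 8, against 0.0981, 0 and 0 CPM in vehicle 7, 8 and 9. Acan was at 0.368, 3.75 and 7.09 CPM in FGF2 6, 7 and 8, against 0.196, 0.329 and 0.286 CPM in the vehicle embryos. Pax7, a factor of the pituitary intermediate lobe, of muscle precursors and of the dorsal midbrain, was highest in FGF2 7, at 0.392, 2.24 and 0.622 CPM in FGF2 6, 7 and 8, against 0, 0.0598 and 0.286 CPM. The whole list of 9 muscle and cartilage genes summed to 196 to 242 CPM in the FGF2 embryos and to 185 to 225 CPM in the vehicle embryos. Most of that sum was Col2a1, also a cartilage gene, at 193, 203 and 223 CPM in FGF2 6, 7 and 8. The groups overlapped for Col2a1, which was at 223, 182 and 204 CPM in vehicle 7, 8 and 9. Myf5 had 0 reads in all 6 libraries. The part of such tissue in the levels of Pitx1 was not tested.

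**Figure D3:**
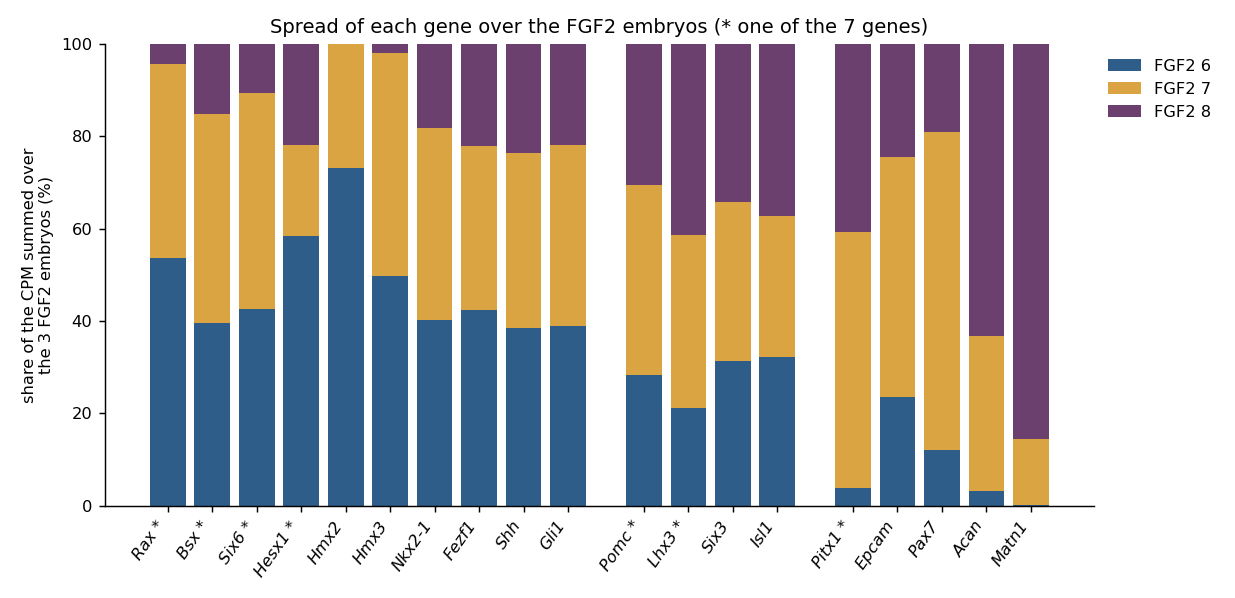
Share (%) of each gene's CPM, summed over the 3 FGF2 embryos, that lay in FGF2 6, 7 and 8, with asterisks on the 7 genes and the other genes chosen after their values were seen. FGF2 8 holds 4.38% of Rax and 0% of Hmx2 at the left, and FGF2 6 holds 3.86% of Pitx1 and 3.28% of Acan at the right.

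The genes most like each of these in profile were found by the root mean square difference of log2(CPM + 0.1), centred on its mean over the 6 embryos, among 14705 named genes. The nearest to Rax were Hhip (0.439), a binding protein of hedgehog ligands, Pmaip1 (0.505) and Glis3 (0.553). The nearest to Bsx were Lrp2 (0.273), an endocytic receptor of the neural tube, Sulf1 (0.345), a heparan sulfate sulfatase, and Gli1 (0.368), a transcription factor and target of hedgehog signalling. The nearest to Six6 were Pmaip1 (0.128), Glis3 (0.208) and Spry1 (0.240). Pitx1, which had the widest profile, had none as close. Its nearest were Slco1a4 (0.665), at 0.297, 1.45 and 1.54 CPM in FGF2 6, 7 and 8 against 0, 0.0598 and 0 CPM in vehicle 7, 8 and 9, then Trim66 (0.754) and Ttll10 (0.769). Pomc was nearest to Cxcr4 (0.0611), Creg1 (0.0697) and SNORA40 (0.0723). Hesx1, with 11 against 0 reads (FGF2 against vehicle), was nearest to Tmem200b (0.0777), Filip1l (0.0823) and Mylk (0.0824). Lhx3, with 16 against 6 reads, was nearest to Rpl19 (0.0791), Icam1 (0.0871) and Mir706 (0.0884). The centred profiles of Pomc, Hesx1 and Lhx3 spanned only 0.727, 0.873 and 0.951 log2 units, against 5.5 for Pitx1. Narrow profiles can lie closer to others, so the differences are not compared between the 7 genes. Every profile shares the division into 3 FGF2 and 3 vehicle embryos, and nothing is read from the likeness.

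Other genes of the same regions were then read from the fit across all genes, in which a gene was called at an adjusted p under 0.05. In the FGF2 embryos, factors of the hypothalamus and genes tied to signals that act on the pouch, hedgehog targets among them, included several large rises. Pituitary hormones, markers of oral epithelium and hypothalamic peptides had few or none. Over all 11 lists, 113 genes were tested, of which 18 rose (15.9%) and 9 fell (7.96%). The lists were drawn up with earlier results of these data known. Genes with almost no vehicle reads could enter the fit only through their FGF2 reads, which favours rises in these counts and in the list medians.

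**Figure D4:**
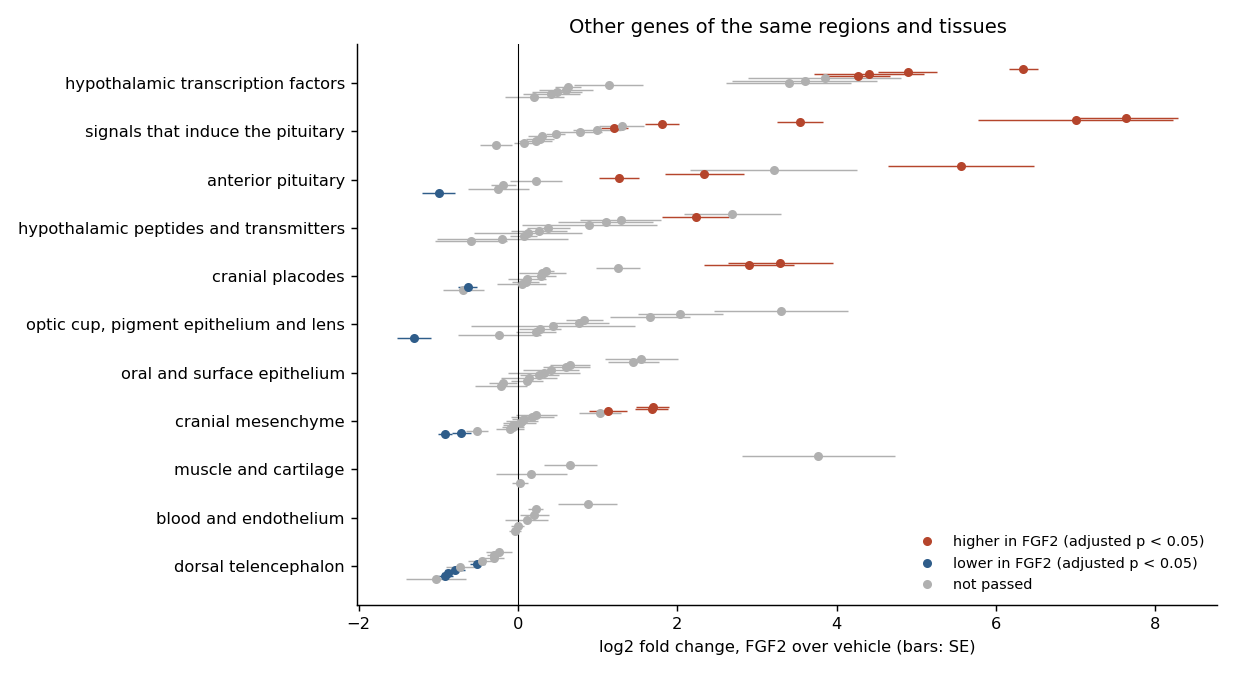
Log2 fold change (FGF2 over vehicle, horizontal axis, bars are SE) of the tested genes of the 11 lists, with genes called higher in red, called lower in blue and not passed in grey. The hypothalamic factors and pituitary-inducing signals reach log2 fold changes above 4, and the dorsal telencephalon genes all lie below 0.

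Of 20 hypothalamic transcription factors, 13 were tested, 4 rose and 0 fell, and the median log2 fold change was 3.40 against 0.01 over all genes tested. Genes nearly silent in the vehicle embryos, such as Sim2, entered the test only through their FGF2 libraries. This raises the median, so nothing is read from it. Fezf1, a zinc-finger factor of the hypothalamus and olfactory system, was at 14.5, 12.2 and 7.53 CPM in FGF2 6, 7 and 8, against 0.932, 0.464 and 0.381 CPM in vehicle 7, 8 and 9. It rose by 4.27 ± 0.40 (SE) on the log2 scale (edgeR adjusted p = 0.00247). Six3, which patterns the anterior forebrain and eye and is a relative of Six6, was at 54.8, 60.2 and 60 CPM in the FGF2 embryos, against 4.12, 3.68 and 0.444 CPM in the vehicle embryos. Six3 rose by 4.41 ± 0.69 (edgeR adjusted p = 0.0286), over a span shared with antisense transcripts. Nkx2-1 was at 58.9, 60.7 and 26.5 CPM in FGF2 6, 7 and 8, against 1.5, 2.06 and 1.33 CPM in vehicle 7, 8 and 9 (log2 fold change 4.89 ± 0.37, edgeR adjusted p = 0.00158). Isl1, a factor of arcuate and of striatal neurons, was at 31.6, 30.2 and 36.6 CPM against 0.409, 0.479 and 0.317 CPM (log2 fold change 6.34 ± 0.18, edgeR adjusted p = 1.54e-05). Nkx2-1, Six3 and Isl1 are known in the ventral telencephalon as well, and their part outside the hypothalamus was not tested. Other factors of the list differed. Otp, which specifies neurosecretory neurons, had 1, 2 and 4 reads in FGF2 6, 7 and 8 against 0, 1 and 0 in the vehicle embryos, and Sim1, which acts with it, was at 1.69, 2.71 and 2.24 CPM against 1.88, 0.987 and 1.84 CPM and did not pass. Of others, named after their values were seen, Dbx1, a progenitor factor, was at 9.37, 3.07 and 4.65 CPM in FGF2 6, 7 and 8 against 0.556, 0.987 and 0.0635 CPM in vehicle 7, 8 and 9 and did not pass (edgeR adjusted p = 0.0657). Sim2, a relative of Sim1, had 41, 21 and 12 reads in FGF2 6, 7 and 8 against 0, 0 and 4 in vehicle 7, 8 and 9 and did not pass (edgeR adjusted p = 0.077), nor did Foxb1, a factor of the mammillary region, at 2.46, 1.0 and 1.2 CPM against 0.72, 0.957 and 0.444 CPM (edgeR adjusted p = 0.207). Nkx2-2, a ventral factor with a span shared by 2 other listed genes, had 142, 0 and 47 reads in FGF2 6, 7 and 8 and 0 in each vehicle embryo, and did not enter the test. Six3 was no longer called without any 1 FGF2 embryo or without vehicle 7 or 8 (highest adjusted p 0.102), nor with no low-count filter (0.0881).

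Among 14 genes tied to signals that induce or pattern the pouch, 5 rose and 0 fell. Their median log2 fold change was 0.88, and the part of tissue other than the hypothalamic floor in these rises was not tested. Shh, secreted by the ventral midline, had 237, 197 and 111 reads in FGF2 6, 7 and 8 against 0, 0 and 2 in vehicle 7, 8 and 9 (edgeR adjusted p = 0.00182), over a span shared with 2 other listed genes. The vehicle reads of Shh lay in the library whose counts are all even, so they need not be 2 separate reads. Gli1 and Ptch1, both targets of hedgehog signalling, rose by 3.54 ± 0.29 and 1.81 ± 0.21 (SE) on the log2 scale (edgeR adjusted p = 0.00158 and 0.00542). Gli1 was at 22.3, 22.5 and 12.5 CPM in FGF2 6, 7 and 8, against 1.72, 1.96 and 1.24 CPM in the vehicle embryos. Wnt5a rose by 1.21 ± 0.17 (edgeR adjusted p = 0.0113), and Fgf8, a signal of forebrain and pouch named after its values were seen as it completes the count, rose by 7.00 ± 1.22 (edgeR adjusted p = 0.0316). Fgf8 was at 7.83, 14.8 and 1.82 CPM in FGF2 6, 7 and 8, against 0, 0.18 and 0 CPM in vehicle 7, 8 and 9. Fgf8 was not followed through the alternatives. Shh and Fgf8 passed the filter on low counts only through their FGF2 libraries, so their calls are given as a description. Of the other signals of the hypothalamic floor, Fgf10 and Bmp4 did not pass. Fgf10 was at 1.31, 2.07 and 1.74 CPM in the FGF2 embryos against 0.851, 0.658 and 0.571 CPM in the vehicle embryos (edgeR adjusted p = 0.0508), and Bmp4 was at 16.6, 16.3 and 11 CPM against 12.4, 12.3 and 11.1 CPM (edgeR adjusted p = 0.388). Without FGF2 8, Fgf10 and Bmp4 were called higher (adjusted p = 0.0463 and 0.0276), and DESeq2 and 3 settings of filter or scaling also called Fgf10 (0.00303 to 0.0483). Wnt5a was not called without vehicle 7 or vehicle 8 (highest adjusted p 0.077). The spans of Gli1, Wnt5a and Fgf10 each overlap that of 1 other listed gene, and the span of Bmp4 overlaps those of 2.

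Of 15 other anterior pituitary genes, 8 were tested, 3 rose and 1 fell, and the median log2 fold change was 0.75. Of the called genes reported here, Gata2, a factor of gonadotrophs and thyrotrophs and also of ventral neurons, rose by 1.27 ± 0.25 (SE) on the log2 scale, Lhb, a gonadotropin subunit, by 2.34 ± 0.50, and Neurod4, a basic helix-loop-helix factor of many neurons, fell by 0.997 ± 0.203 (edgeR adjusted p = 0.0362, 0.0473 and 0.0419). The span of Lhb shares bases with that of Ruvbl2. Genes of differentiating pituitary cells ranged widely. Gh, which encodes growth hormone, and Fshb, a gonadotropin subunit, had 0 reads in all 6 libraries, and Cga, the subunit shared by the glycoprotein hormones, had 2, 9 and 1 reads in FGF2 6, 7 and 8 against 2, 1 and 2 in the vehicle embryos. Tbx19, the factor that activates Pomc in corticotrophs, was at 8.49, 9.57 and 7.34 CPM in the FGF2 embryos against 8.77, 8.83 and 11.2 CPM in the vehicle embryos and did not pass. Its span overlaps that of 1 other listed gene, whose reads may be part of these levels. Pou1f1, a factor of somatotrophs, lactotrophs and thyrotrophs named after its values were seen, was at 1.56, 1.28 and 2.52 CPM in FGF2 6, 7 and 8 against 1.68, 1.78 and 1.11 CPM in vehicle 7, 8 and 9, and Tshb, the thyrotropin subunit named likewise, at 0.428, 0.409 and 0.886 CPM against 0.818, 0.613 and 0.603 CPM, and neither passed. The 3 calls named did not survive the loss of some single embryos: Gata2 without FGF2 7 or any single vehicle embryo (highest adjusted p 0.167), Lhb without FGF2 7, 8 or any single vehicle embryo (0.195), and Neurod4 without FGF2 6, 7 or any single vehicle embryo (0.163).

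Hypothalamic peptides and transmitters gave 1 rise and 0 falls among 11 of 18 genes tested, and the median log2 fold change was 0.38. The gene that rose was Hdc, the enzyme that makes histamine, at 0.737, 1.20 and 0.762 CPM in FGF2 6, 7 and 8, against 0.213, 0.105 and 0.254 CPM in the vehicle embryos (log2 fold change 2.23 ± 0.42, edgeR adjusted p = 0.0329). Hdc is also a gene of mast cells, and it was not called when FGF2 6, FGF2 7 or any single vehicle embryo was left out (highest adjusted p 0.124). The partners of Pomc in the arcuate nucleus did not pass: Agrp was at 0.452, 0.197 and 0.482 CPM in the FGF2 embryos against 0.671, 0.688 and 0.349 CPM, and Npy at 0.630, 1.13 and 6.93 CPM against 1.8, 1.93 and 0.921 CPM. Gal, a peptide of several hypothalamic nuclei, was at 0.452, 0.155 and 0.435 CPM in the FGF2 embryos against 0.0654, 0.0598 and 0.0317 CPM (edgeR adjusted p = 0.0576), without overlap between the groups, and was called higher without FGF2 7 (adjusted p = 0.0488) and with DESeq2.

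Lists of the eye and the placodes gave few calls. Of 16 genes of the optic cup, pigment epithelium and lens, 10 were tested, 0 rose and 1 fell, which was the melanin enzyme gene Dct, also expressed in the embryonic telencephalon, by 1.31 ± 0.21 (SE) on the log2 scale (edgeR adjusted p = 0.0209). Of 13 placode genes, 11 were tested. Dlx5 and Dlx6, which are also factors of ventral telencephalic neurons, rose by 2.90 ± 0.57 and 3.29 ± 0.66, and Sox3, a factor of neural progenitors and the hypothalamic floor, fell by 0.63 ± 0.12 (edgeR adjusted p = 0.0487, 0.049 and 0.037). Among single embryos left out, Dct was not called without FGF2 7, FGF2 8 or vehicle 7 (highest adjusted p 0.0722), Dlx5 and Dlx6 without any 1 FGF2 embryo, vehicle 7 or vehicle 8 (both up to 0.157), and Sox3 without FGF2 6, FGF2 7 or any 1 vehicle embryo (up to 0.166).

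Oral and surface epithelium, the tissue in which Pitx1 is best known, was measured in both groups. Of 12 markers 11 were tested, 0 rose and 0 fell, and the other, Foxe1, named after its values were seen, had 4, 2 and 0 reads in FGF2 6, 7 and 8 against 0, 4 and 0 in vehicle 7, 8 and 9. Summed levels of the list were 92.5, 147 and 115 CPM in FGF2 6, 7 and 8, against 95.7, 135 and 95.2 CPM in vehicle 7, 8 and 9. Krt5, a keratin of basal epithelium, was at 33.9, 51.5 and 45.3 CPM in the FGF2 embryos against 44.8, 58.8 and 45.2 CPM in the vehicle embryos. Epcam, an adhesion molecule of epithelia, was at 7.24, 16.0 and 7.56 CPM in the FGF2 embryos against 3.29, 4.26 and 3.75 CPM in the vehicle embryos (log2 fold change 1.45 ± 0.32, edgeR adjusted p = 0.0548). FGF2 7 was the highest for Epcam, and FGF2 6 and 8 were close to each other, unlike for Pitx1. Of the 11 tested markers, FGF2 6 was the lowest of its group in 6 and FGF2 8 in 5. Epcam was called higher without FGF2 8 (adjusted p = 0.0362) and in 4 other alternatives (0.000244 to 0.048), and its part in the level of Pitx1 was not tested.

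Mesenchyme and the forebrain wall itself gave the remaining calls. Of 15 identifiers of 13 mesenchyme genes, 3 rose, namely both identifiers of Alx1 at the same locus (by 1.68 and 1.69) and Foxd1 (by 1.13), a factor of head mesenchyme and of the hypothalamus that is named after its values were seen as it completes the count, and 2 fell. Col1a1, a fibrillar collagen, was at 886, 937 and 974 CPM in FGF2 6, 7 and 8, against 1810, 1660 and 1810 CPM in vehicle 7, 8 and 9 (log2 fold change -0.92 ± 0.09, edgeR adjusted p = 0.00276), and Col1a2 fell by 0.71 ± 0.12 (edgeR adjusted p = 0.0202). Of 6 blood and endothelial genes 0 passed in either direction. Of 10 dorsal telencephalon genes 4 fell and 0 rose, with a median of -0.62. Emx1, a factor of the cortical wall, was at 96.0, 96.7 and 109 CPM in FGF2 6, 7 and 8, against 186, 185 and 182 CPM (log2 fold change -0.88 ± 0.08, edgeR adjusted p = 0.00188). Eomes, a factor of intermediate progenitors, Neurog2, which drives cortical neurogenesis, and Pax6, a factor of radial glia, fell by 0.91, 0.79 and 0.51 (edgeR adjusted p = 0.00288, 0.0194 and 0.029). Calls were lost for Col1a2 without FGF2 7, vehicle 7 or 9 (highest adjusted p 0.0975), Neurog2 without FGF2 6 or any single vehicle embryo (0.0856) and Pax6 without FGF2 7 or any single vehicle embryo (0.14). Foxd1 was not followed through the alternatives.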

How the data were processed

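Per the submitters' processing notes, bedtools 2.12.0, Bowtie2 2.1.0.0, TopHat2 2.0.9 and CASAVA 1.8 served with build NCBIM37 (mm9), no roles being named. The deposited files give, for each gene, a whole-number count of alignments overlapping the span from gene start to gene end, introns included, and the covered fraction of that span (how gaps of spliced alignments were treated: not given in the sources used here). Authors' deposited RPKM values were joined by symbols that occur once. Starts in the files count from 0, since end minus start equals the GENCODE M21 gene length for 21746 genes, and are printed 1-based.

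The 7 genes and all lists were chosen with earlier results of these data known. Counts were tested with edgeR 4.0.16 (R 4.3.3; filterByExpr, TMM, robust glmQLFit, glmQLFTest), FGF2 over vehicle, 3 embryos each, no covariate, Benjamini-Hochberg over 21983 genes. SEs are the log2 fold change over the root of F. Exact permutation of 3 against 3 cannot go below p = 0.1. Genes named are the 7, up to 4 called genes of smallest p per list at a mean of at least 0.5 CPM, a fixed set, and 3 like profiles per gene, with exceptions stated. Some genes that this rule names are not reported here, but are part of the counts and medians of their lists. The alternatives used DESeq2 1.42.0 and limma 3.58.1. The scripts were tested on simulated data. Without molecular identifiers, reads do not stand for independent molecules, and intervals and floors cover counting error only.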

Additional observations from a re-analysis of the deposited data

How the results depend on the processing

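Against 799 called genes over all genes (73.8% higher in FGF2), DESeq2 called 2145 (62.7% higher), limma on genes of RPKM 1 or more called 446 with a pseudocount of 1 and 440 with 0.1, and 324 with a pseudocount of 1 and no filter, and genes overlapping no other span gave 488. Leaving out 1 embryo gave 218 (without vehicle 8) to 1943 (without FGF2 8, 49.6% higher). Against 27 called list genes, DESeq2 gave 48, unfiltered RPKM 11, and leaving out 1 embryo 12 (without vehicle 7) to 41 (without FGF2 8). RLE factors, library totals, other count filters and halved counts of vehicle 9 kept both counts within 1.5 times. With the embryo number as a replicate block, which only 7 and 8 share, 703 genes and 32 list genes were called. Deviations of same-numbered embryos correlated at -0.0378 and -0.0230, so the numbers were not taken as pairs.

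On the log2(CPM + 0.1) scale the FGF2 minus vehicle difference of the 7 genes kept its direction under every alternative that gave a value, at 2.97 to 5.15 for Pitx1, 2.97 to 4.07 for Bsx, 2.22 to 3.68 for Rax, 0.78 to 2.51 for Six6, 0.37 to 0.93 for Hesx1, 0.14 to 0.42 for Pomc and 0.10 to 0.69 for Lhx3. This contrast chose the list, and Pitx1, Hesx1, Six6, Bsx and Rax had 0 or 2 vehicle reads. Their direction could hardly change, so nothing is read from it. Lhx3, Hesx1, Six6 and Bsx each moved by at least the spread between embryos in 1 alternative. Of 24 named list genes called, 11 kept the call in all fits without 1 embryo. Log2 fold changes turned sign for Tbx19 (0.0089, unfiltered RPKM) and Npy (-0.82 without FGF2 8, range to 1.36 over embryos left out), neither of them called; the causes were not tested. Members at a few reads are limited by depth, and the median log2 fold change of all genes was at most 0.0523 in any setting. DESeq2 and limma were fitted across genes, but their results for the 7 genes were not taken. Six6 and Rax have no value among genes overlapping no other span.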
